A study of Mus musculus with 28 samples.

Results

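The cell cycle and DNA replication genes described here are 44 mouse genes, chosen by symbol and all found in each of the 3 expression tables among 55291 listed genes. By role, 12 act at the passage from G1 into S phase, 14 in DNA replication and 18 in G2 and mitosis. RNA was sequenced in 28 bulk libraries of 8 groups. In the first culture experiment, LLC cells, a mouse lung carcinoma line labelled WT, received 200 nM BAY-876 for 36 h (3 libraries) or vehicle (3 libraries). BAY-876 blocks GLUT1, a transporter that brings glucose into cells. In the second, LLC cells were first kept for 24 h with or without 200 nM BAY-876 and then for 32 h with or without 20 ng/ml TNF, an inflammatory cytokine. It gave 3 libraries each of BAY-876 with TNF, BAY-876 alone, TNF alone and control, and the labels do not say whether the inhibitor was still present in the 32 h. In the third, LLC cells carrying ovalbumin and NGFR were grown under the skin of Rag1 ko mice, which lack T and B lymphocytes but keep myeloid cells, fibroblasts and vessels. Activated OT1 cells, CD8 T cells with a transgenic receptor for an ovalbumin peptide, were transferred on day 9. On day 16, 5 libraries of OT1 cells and 5 of tumour cells were made from sorted cells, so that both groups came from mice given the transfer.

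In a dividing mammalian cell, D-type cyclins with Cdk4 or Cdk6, and then cyclin E with Cdk2, phosphorylate the retinoblastoma protein and release E2F factors, which switch on genes for DNA replication. The inhibitors p21 and p27, encoded by Cdkn1a and Cdkn1b, restrain these kinases. Genes for G2 and mitosis are transcribed later, when B-Myb (Mybl2) and FoxM1 act with the MuvB complex, and the messages are low in cells that have left the cycle.

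Library totals in the 36 h experiment were 16847993.6 to 17134536.0 normalized counts, values that the authors had scaled between libraries, and the TPM (length-scaled transcript abundance) of the other libraries sum to 1000000, so the sequencing depth is unknown for all libraries. Separate cultures or animals are not stated for the replicates, so a p-value measures the spread between these libraries, which may be technical. In the 18 LLC culture libraries 11 of 12 tumour markers were at 1 or more, with Cdh2 at or near 0, and at 32 h Cd3e was at 0 in every library. On day 16 the 12 T cell markers summed to 5834 to 9415 TPM in OT1 libraries and 5.68 to 17.3 TPM in tumour libraries. Tumour markers were not absent from OT1 libraries, where they summed to 204 to 376 TPM, against 2629 to 3032 TPM in tumour libraries. These markers did not move together in OT1 library 5. Anxa1 and Axl, at 100 and 69.4 TPM, were at their highest among OT1 libraries there, and Krt18, Hmga2, Tm4sf1 and Rhox5 at their lowest. The 18 myeloid markers, all at 1 TPM or more in every OT1 library, summed to 1369.5, 9631, 4559.9, 4732 and 36881 TPM in OT1 libraries 1 to 5, against 68.1 to 392 TPM in tumour libraries. OT1 library 5 thus stood apart, with the highest myeloid and the lowest T cell sum.

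The classes differed in their promoters. Of the 44 genes, 35 had a window in the RefSeq promoter table of GRCm38.p6, which runs from 250 bases before each start to 50 after it, and some genes had more than 1 window. The motifs searched on both strands were an E2F motif (TTTCGCGC, TTTCCCGC, TTTGGCGC or TTTGCCGC), the cell cycle homology region CHR (TTTGAA or TTCGAA) to which MuvB binds, and the CCAAT box. Matches to E2F on opposite strands can overlap. CHR and CCAAT occurred together in 11 of 15 mitosis windows (73.3%), 3 of 13 replication windows (23.1%) and 0 of 10 G1 windows, against 7.52% of all 32851 windows. E2F occurred in 5 of 13 replication windows (38.5%), 1 of 15 mitosis windows (6.67%) and 1 of 10 G1 windows (10%), against 2.26% of all windows. A match is a stretch of letters, not a shown site, and a missing match does not show that a site is absent. The 250 bases before the start are printed for 5 genes whose values recur below, with matches in capitals: Mcm6 for the replication class, Ccnb2 and Mki67 for the mitosis class, and Mybl2 and Cdkn1b, which moved against most of their classes under TNF. They lie, for Mcm6 at chr1:128359706-128359955, minus strand, for Ccnb2 at chr9:70421555-70421804, minus strand, for Mki67 at chr7:135716380-135716629, minus strand, for Mybl2 at chr2:163054385-163054634, plus strand, and for Cdkn1b at chr6:134920151-134920400, plus strand.
Mcm6: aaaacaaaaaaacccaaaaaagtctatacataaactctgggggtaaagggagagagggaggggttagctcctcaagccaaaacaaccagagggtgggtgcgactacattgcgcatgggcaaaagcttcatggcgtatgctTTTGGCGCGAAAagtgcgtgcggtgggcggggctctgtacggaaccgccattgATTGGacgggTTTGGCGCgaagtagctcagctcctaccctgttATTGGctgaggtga
Ccnb2: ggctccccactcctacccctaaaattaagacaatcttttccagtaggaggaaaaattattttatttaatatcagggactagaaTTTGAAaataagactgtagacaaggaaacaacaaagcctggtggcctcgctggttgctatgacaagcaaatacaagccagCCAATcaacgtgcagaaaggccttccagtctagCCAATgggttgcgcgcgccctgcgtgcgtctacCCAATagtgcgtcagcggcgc
Mki67: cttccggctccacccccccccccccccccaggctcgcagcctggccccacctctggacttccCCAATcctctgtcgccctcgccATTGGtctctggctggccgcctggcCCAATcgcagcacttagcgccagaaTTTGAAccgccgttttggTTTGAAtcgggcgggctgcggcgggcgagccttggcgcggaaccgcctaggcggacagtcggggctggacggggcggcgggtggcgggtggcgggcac
Mybl2: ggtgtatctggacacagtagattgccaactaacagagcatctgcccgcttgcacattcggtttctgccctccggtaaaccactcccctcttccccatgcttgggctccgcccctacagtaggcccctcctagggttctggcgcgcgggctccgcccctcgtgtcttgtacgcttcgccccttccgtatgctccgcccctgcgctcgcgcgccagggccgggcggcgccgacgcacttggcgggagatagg
Cdkn1b: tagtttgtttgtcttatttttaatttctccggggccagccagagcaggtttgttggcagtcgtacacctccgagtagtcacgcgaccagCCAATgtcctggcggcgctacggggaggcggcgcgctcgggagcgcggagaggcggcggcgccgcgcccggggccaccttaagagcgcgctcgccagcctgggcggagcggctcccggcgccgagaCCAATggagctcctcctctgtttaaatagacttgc
Mcm6 held 3 E2F matches, 2 of them on opposite strands within 1 run of capitals, and 2 CCAAT boxes. Ccnb2 held 1 CHR and 3 CCAAT boxes before its start and another CHR, not printed, at base 5 after it. Mki67 held 2 CHR and 3 CCAAT boxes before its start. The Mybl2 window had no exact match to any of the letters searched. Cdkn1b had 2 CCAAT boxes before its start and another at base 46 after it.

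In LLC cells under control conditions at 32 h the members spanned a wide range of TPM. The kinase genes Cdk4, at 636 ± 8.53 TPM (SD, n = 3), and Cdk1, at 439.5 ± 14.3 TPM (SD, n = 3), were highest, and Rb1 was lowest at 3.19 ± 0.512 TPM (SD, n = 3). The heat map shows every member in every library relative to the vehicle, control or tumour group of its experiment. Most mitosis rows share a colour in the BAY-876 groups at 32 h and in OT1 cells, and G1 rows split into both colours.

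**Figure D1:**
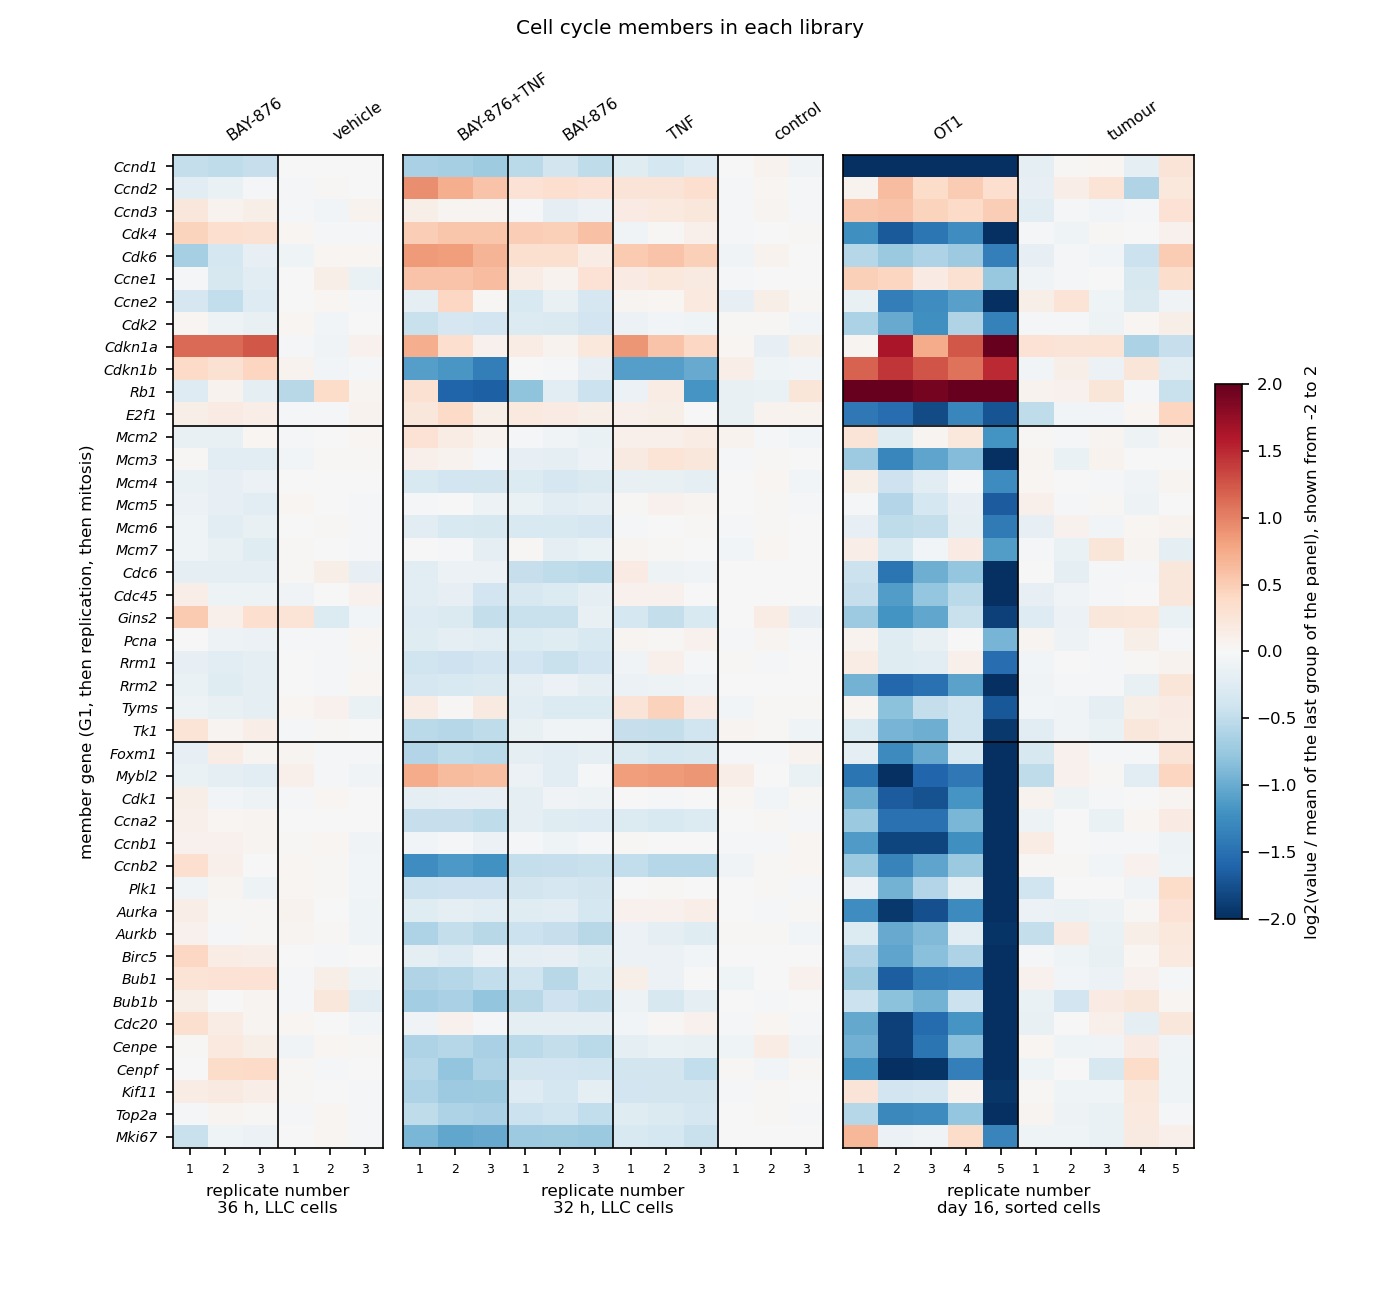
Colour gives the log2 ratio of each library to the mean of the vehicle, control or tumour group (the right-hand group of each panel), clipped at −2 and 2, for the 44 members (rows, in the order G1, replication, mitosis) and the 28 libraries (columns, by replicate number). Mitosis members are pale at 36 h, mostly blue in the BAY-876 groups at 32 h, where Mybl2 with TNF is red and Cdc20 with TNF and Ccnb1 are pale, and mostly blue in OT1 library 5.

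Most members that passed with BAY-876 at 36 h were G1 regulators. The comparison sets GLUT1-inhibited LLC cells against vehicle. The p21 gene Cdkn1a rose, as did Cdk4 and the p27 gene Cdkn1b, while Ccnd1, Cdk6 and Ccne2 fell. In all, 4 members rose and 5 fell of the 44 tested, or 20.5%, against 14.4% of the 12937 genes tested (7.33% higher, 7.09% lower). By class, 3 G1 members rose and 3 fell of 12, 2 replication members fell of 14, and 1 mitosis member rose of 18. The median log2 fold change was −0.07 for G1, −0.14 for replication, 0.07 for mitosis and −0.00124 for all genes tested. In bulk RNA, fewer cells in a phase and less RNA per cell cannot be told apart.

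Cdkn1a, an inhibitor of cyclin-dependent kinases that p53 and other stress pathways induce, stood at 1307, 1302 and 1404 normalized counts with BAY-876, against 579.8, 567 and 632 with vehicle. The 3 treated libraries were close together and far above the vehicle libraries, 2.25-fold higher (log2 1.17, SE 0.074, limma adjusted p = 7.92e-05). The gene of the related inhibitor p27, Cdkn1b, had 1395, 1327 and 1446 normalized counts with BAY-876, against 1132, 1029 and 1057 with vehicle. Its groups did not overlap, and BAY-876 was 1.30-fold higher (log2 0.37, SE 0.067, limma adjusted p = 0.0094). Cdk4, a partner kinase of the D cyclins, read 8592, 8002 and 7849 normalized counts with BAY-876, against 6494, 6223 and 6250.4 with vehicle. All treated libraries were above all vehicle libraries, 1.29-fold higher (log2 0.36, SE 0.049, limma adjusted p = 0.00288). Its paralog Cdk6 went the other way, with 3365, 4172 and 4745 normalized counts with BAY-876, against 5047, 5456 and 5505 with vehicle. Treated library 1 was the lowest and treated library 3 the closest to vehicle, and the groups did not overlap (log2 −0.40, SE 0.11, limma adjusted p = 0.0412).

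Among the D cyclins, which sense growth signals in G1, Ccnd1 had 6713, 6598 and 6819 normalized counts with BAY-876, against 9396, 9417 and 9272 with vehicle. Both groups were tight and well apart, with BAY-876 1.40-fold lower (log2 −0.48, SE 0.040, limma adjusted p = 0.00039). Ccnd2 had 5315, 5662 and 6015 normalized counts with BAY-876, against 6124, 6316 and 6188 with vehicle. The treated libraries all lay lower, by less than the test required (log2 −0.13, SE 0.054, limma adjusted p = 0.128). Ccnd3 had 2575, 2318 and 2372 normalized counts with BAY-876, against 2171, 2110.0 and 2312 with vehicle, with every treated library higher, also without passing (log2 0.14, SE 0.063, limma adjusted p = 0.171). Cyclin E2 (Ccne2), an activator of Cdk2 at the entry to S phase, had 1197, 1070.2 and 1257 normalized counts with BAY-876, against 1498, 1547 and 1485 with vehicle. It was lower in each treated library, 1.29-fold lower (log2 −0.36, SE 0.073, limma adjusted p = 0.0138).

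Of the replication genes, both subunits of ribonucleotide reductase, which makes deoxyribonucleotides, fell. Rrm1 had 4082, 3897 and 3988 normalized counts with BAY-876, against 4567, 4474 and 4637 with vehicle, without overlap and 1.14-fold lower (log2 −0.19, SE 0.046, limma adjusted p = 0.0265). Rrm2 had 5886, 5469.8 and 5728 normalized counts with BAY-876, against 6435, 6346 and 6683 with vehicle, likewise without overlap and 1.14-fold lower (log2 −0.19, SE 0.048, limma adjusted p = 0.0325). The other 12 ranged from a log2 fold change of −0.19 (Cdc6) to 0.34 (Gins2), and none of these 12 passed. In mitosis, Bub1, a kinase of the spindle checkpoint, had 2546, 2557 and 2569.5 normalized counts with BAY-876, against 2078, 2278 and 1948 with vehicle. The treated libraries agreed closely and lay above the vehicle libraries, 1.22-fold higher (log2 0.29, SE 0.065, limma adjusted p = 0.0225). The other 17 mitosis members ran from −0.22 (Mki67) to 0.26 (Cenpf) on the log2 scale without passing, and 14 of the 18 were above 0. Cdkn1a, Cdkn1b, Cdk4 and Ccnd1 passed with any 1 library left out. The count of members lower was 11 without BAY-876 library 1, 2 without BAY-876 library 2, 3 without BAY-876 library 3 and 1 without vehicle library 1, 2 or 3, and Rrm1, Rrm2, Cdk6, Ccne2 and Bub1 lost their calls in some of these (largest limma adjusted p 0.109, 0.131, 0.129, 0.0626 and 0.0896).

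Further genes of the pathway came from lists of other cell cycle genes and p53 targets, of which the shares called were 52.9% in G1, 6.45% in replication, 11.1% in mitosis and 29.4% among p53 targets, against 14.4% of all genes. Of 17 other G1 genes tested 3 rose and 6 fell. The activator E2f3 fell (log2 −0.46, SE 0.063), as did the E2F partner Tfdp1 (log2 −0.19, SE 0.043), and the Cdk4 inhibitor Cdkn2d rose (log2 0.52, SE 0.11), each by limma across all genes. Of 31 other replication genes 2 fell, the origin recognition subunit Orc2 (log2 −0.41, SE 0.083) and the maintenance methyltransferase Dnmt1 (log2 −0.15, SE 0.041). Of 36 other mitosis genes 4 rose and 0 fell at the limma threshold, among them the Cdk1-activating phosphatase Cdc25b (log2 0.47, SE 0.065), the centrosomal kinase Nek2 (log2 0.26, SE 0.059) and the kinesin Kif2c (log2 0.29, SE 0.069). Of 17 other p53 target genes tested 4 rose and 1 fell, with the growth arrest gene Gadd45a at 356 ± 27.2 against 164 ± 18.1 normalized counts in treated against vehicle libraries (mean ± SD, n = 3), 2.16-fold higher (log2 1.11, SE 0.12, limma adjusted p = 0.00117). Zmat3 (log2 0.38, SE 0.069) and the pro-apoptotic Bax (log2 0.47, SE 0.098) also rose. Mdm2, at 1514 ± 157 against 1387 ± 107 normalized counts, and Ccng1, at 1059 ± 46.1 against 1081 ± 9.25, overlapped between the groups (mean ± SD, n = 3). Aen had a lower mean with BAY-876, at 1035 ± 60.7 against 1256 ± 73.4 normalized counts.

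At 32 h, BAY-876 lowered most replication and mitosis genes while Cdk4 rose. Alone, against control, it had 3 members higher and 29 lower of 44, or 72.7%, against 37.4% of the 12780 genes tested (11.5% higher, 25.8% lower). The 29 lower members comprised 2 of 12 in G1, 11 of 14 in replication and 16 of 18 in mitosis, and the 3 higher ones were G1 genes. Median log2 fold changes were 0.03 for G1, −0.25 for replication and −0.31 for mitosis, against −0.09 for all genes. The 12 tumour markers moved as well, summing to 1606 to 1699 TPM with BAY-876 and TNF, 2309 to 2336 TPM with BAY-876, 1916 to 2036 TPM with TNF and 2551 to 2627 TPM in controls, and their part in the class values was not tested. Over all genes, 1473 were higher and 3303 lower, and with quantile normalization 2238 were higher and 2305 lower, under which 5 members were higher and 25 lower by limma. The authors' deposited table of this comparison, with 2303 genes higher and 2161 lower, has 19 members lower, of which 5 were replication and 12 mitosis genes. Cdk1 lost its call without BAY-876 library 1 or control library 1 or 3, and Gins2 without BAY-876 library 1 or 2 or control library 1 or 2. With quantile normalization Cdc20, Foxm1, Mcm3 and Tyms did not pass, and Birc5, Cdc20, Cdc45, Cdk1, Foxm1, Gins2, Mcm3, Mcm5, Rrm2 and Tyms did not pass in the authors' deposited table.

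Added to TNF, BAY-876 was compared through group means of libraries that the comparison against control does not use. The 4 groups shared 1 estimate of the spread, so the calls in these comparisons are not independent. BAY-876 with TNF against TNF had 4 members higher and 25 lower, or 65.9% of 44, against 34% of all genes tested (10.4% higher, 23.6% lower). Of these, 8 replication and 15 mitosis members were lower, and Mcm5 and Mybl2 lost their calls when any of several libraries was left out: Mcm5 without combination library 1 or 3 or any TNF library, Mybl2 without combination library 2 or 3 or any TNF library. In the authors' deposited table of this comparison Ccna2, Cdk1, Foxm1, Mcm3, Mcm4, Mcm5, Mybl2 and Rrm2 did not pass. Over all genes the split was 1323 higher and 3018 lower, or 1860 higher and 2048 lower with quantile normalization. In the comparisons with and without TNF 27 members passed in the same direction, 84.4% of the 32 called without TNF and 93.1% of the 29 called with it. Over all 12780 genes tested the matching shares were 62.7% and 68.9% (2993 genes). They comprised 5 G1, 8 replication and 14 mitosis members.

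With TNF, members moved in both directions. Against control 8 rose and 15 fell of 44, or 52.3%, near the 45.6% of all genes tested (19.4% higher, 26.1% lower). In G1 5 rose and 2 fell of 12, in replication 2 rose and 4 fell of 14, and in mitosis 1 rose and 9 fell of 18. The medians were 0.09 for G1, 0.01 for replication (−0.04 with quantile normalization) and −0.17 for mitosis, against −0.06 for all genes. In the authors' deposited table of this comparison, 3061 genes were higher and 2707 lower, against 2485 and 3341 by limma, and Aurkb, Bub1b, Ccne1, Mcm4 and Rrm2 did not pass there. Gins2 lost its call without control library 2 and Bub1b without TNF library 2. Added to BAY-876, TNF gave 12 members higher and 12 lower, or 54.5%, against 44.2% of all genes tested (19.3% higher, 24.8% lower), with 5 and 2 in G1, 5 and 2 in replication, and 2 and 8 in mitosis. Ccnd1, Rrm2 and Top2a did not pass in the authors' deposited table of this comparison, nor Cdc20, Mcm3 and Mcm5 with quantile normalization. Ccne2 lost its call without combination library 2 or 3 or BAY-876 library 1 or 3, and Top2a without combination library 3 or BAY-876 library 2. The comparisons of TNF with and without BAY-876 take their group means from separate libraries, with the estimate of the spread again shared. In them 19 members passed in the same direction, 82.6% of the 23 called without BAY-876 and 79.2% of the 24 called with it. Over all genes tested the shares were 73.6% and 75.9% (4286 genes), near those of the members.

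Among the G1 genes Cdk4 rose with BAY-876 and did not pass with TNF. It had 893, 934 and 936 TPM with BAY-876 and TNF, 897, 886 and 953 with BAY-876, 602, 647 and 681 with TNF and 626, 638 and 643 in controls. The BAY-876 libraries, with or without TNF, all lay above the rest. BAY-876 was 1.43-fold higher (log2 0.52, SE 0.044, limma adjusted p = 7.55e-06) alone and 1.43-fold higher (log2 0.52, SE 0.044, limma adjusted p = 7.98e-06) on TNF, while TNF against control gave log2 0.02 (SE 0.044), limma adjusted p = 0.802. Cdk6 had 128, 126 and 113 TPM with BAY-876 and TNF, 88.2, 87.6 and 78.2 with BAY-876, 101, 104 and 97.7 with TNF and 67.5, 74.0 and 70.1 in controls. Every treated group lay above control, and the combination was highest. TNF was 1.43-fold higher (log2 0.51, SE 0.062, limma adjusted p = 3.86e-05) against control and 1.44-fold higher (log2 0.52, SE 0.062, limma adjusted p = 3.28e-05) on BAY-876, and BAY-876 was 1.20-fold higher (log2 0.26, SE 0.062, limma adjusted p = 0.00664) against control and 1.21-fold higher (log2 0.27, SE 0.062, limma adjusted p = 0.00562) on TNF.

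Ccnd1 fell with each agent. It had 130.01, 129 and 125 TPM with BAY-876 and TNF, 139.95, 158 and 144 with BAY-876, 173, 159 and 171 with TNF and 203, 215 and 194 in controls. The 4 groups did not overlap and were ordered from the combination up to control. BAY-876 was 1.38-fold lower (log2 −0.47, SE 0.054, limma adjusted p = 6.14e-05) and TNF 1.21-fold lower (log2 −0.28, SE 0.054, limma adjusted p = 0.00125) against control, and the combination was 1.31-fold lower (log2 −0.39, SE 0.054, limma adjusted p = 0.000271) than TNF and 1.15-fold lower (log2 −0.20, SE 0.054, limma adjusted p = 0.0108) than BAY-876. Ccnd2 ran opposite to it, with 169.7, 148 and 133 TPM with BAY-876 and TNF, 109, 113 and 109 with BAY-876, 107, 107 and 113 with TNF and 87.6, 92.1 and 88.1 in controls. Combination libraries were highest and control libraries lowest, with no overlap of either with the other groups. BAY-876 was 1.23-fold higher (log2 0.30, SE 0.070, limma adjusted p = 0.00629) and TNF 1.22-fold higher (log2 0.29, SE 0.070, limma adjusted p = 0.00606) against control, and the combination was 1.37-fold higher (log2 0.45, SE 0.070, limma adjusted p = 0.000549) than TNF. Ccnd3 had 94.7, 90.8 and 90.8 TPM with BAY-876 and TNF, 86.0, 76.0 and 80.1 with BAY-876, 97.9, 100.1 and 102 with TNF and 86.2, 91.0 and 84.5 in controls. It was higher with TNF, 1.15-fold higher (log2 0.20, SE 0.050, limma adjusted p = 0.00666) against control and 1.14-fold higher (log2 0.19, SE 0.050, limma adjusted p = 0.00838) on BAY-876, and for BAY-876 against control its value was log2 −0.11 (SE 0.050).

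The inhibitor gene Cdkn1b fell with TNF by more, in log2 terms, than any other member. It had 17.5, 16.8 and 14.6 TPM with BAY-876 and TNF, 37.5, 36.9 and 33.8 with BAY-876, 17.6, 17.7 and 18.8 with TNF and 41.2, 35.7 and 36.5 in controls. All 6 libraries with TNF lay far under all 6 without it. TNF was 2.04-fold lower (log2 −1.03, SE 0.079, limma adjusted p = 1.09e-06) against control and 2.15-fold lower (log2 −1.10, SE 0.079, limma adjusted p = 6.03e-07) on BAY-876, and the value for BAY-876 against control was log2 −0.06 (SE 0.079). Cdkn1a had 19.3, 14.7 and 12.4 TPM with BAY-876 and TNF, 12.9, 12.2 and 13.5 with BAY-876, 21.6, 17.3 and 15.5 with TNF and 11.96, 10.4 and 12.6 in controls. The TNF libraries lay above control, the combination libraries spread widely, and BAY-876 alone overlapped control. TNF was 1.501-fold higher (log2 0.59, SE 0.15, limma adjusted p = 0.00709) against control, and BAY-876 against control gave log2 0.13 (SE 0.15, limma adjusted p = 0.512).

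Cyclin E1 and its kinase moved apart with BAY-876 on TNF, the only comparison at 32 h in which both passed. Ccne1 had 25.5, 25.6 and 26.5 TPM with BAY-876 and TNF, 19.1, 18.1 and 20.9 with BAY-876, 19.3, 19.9 and 19.5 with TNF and 16.9, 17.3 and 17.3 in controls. Combination libraries were highest and control libraries lowest. The combination was 1.31-fold higher (log2 0.38, SE 0.060, limma adjusted p = 0.000535) than TNF and 1.32-fold higher (log2 0.40, SE 0.060, limma adjusted p = 0.000196) than BAY-876. BAY-876 against control did not pass for Ccne1 (log2 0.16, SE 0.060, limma adjusted p = 0.0518). TNF against control passed (log2 0.18, SE 0.060, limma adjusted p = 0.029), but not without TNF library 2 or 3 or any 1 control library (limma adjusted p up to 0.0835). Cdk2 had 46.3, 49.7 and 48.3 TPM with BAY-876 and TNF, 52.2, 51.5 and 48.3 with BAY-876, 58.1, 60.8 and 59.0 with TNF and 64.0, 64.0 and 60.7 in controls. The BAY-876 libraries lay under those without it, 1.24-fold lower (log2 −0.31, SE 0.047, limma adjusted p = 0.00045) against control and 1.23-fold lower (log2 −0.30, SE 0.047, limma adjusted p = 0.000641) on TNF.

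**Figure D2:**
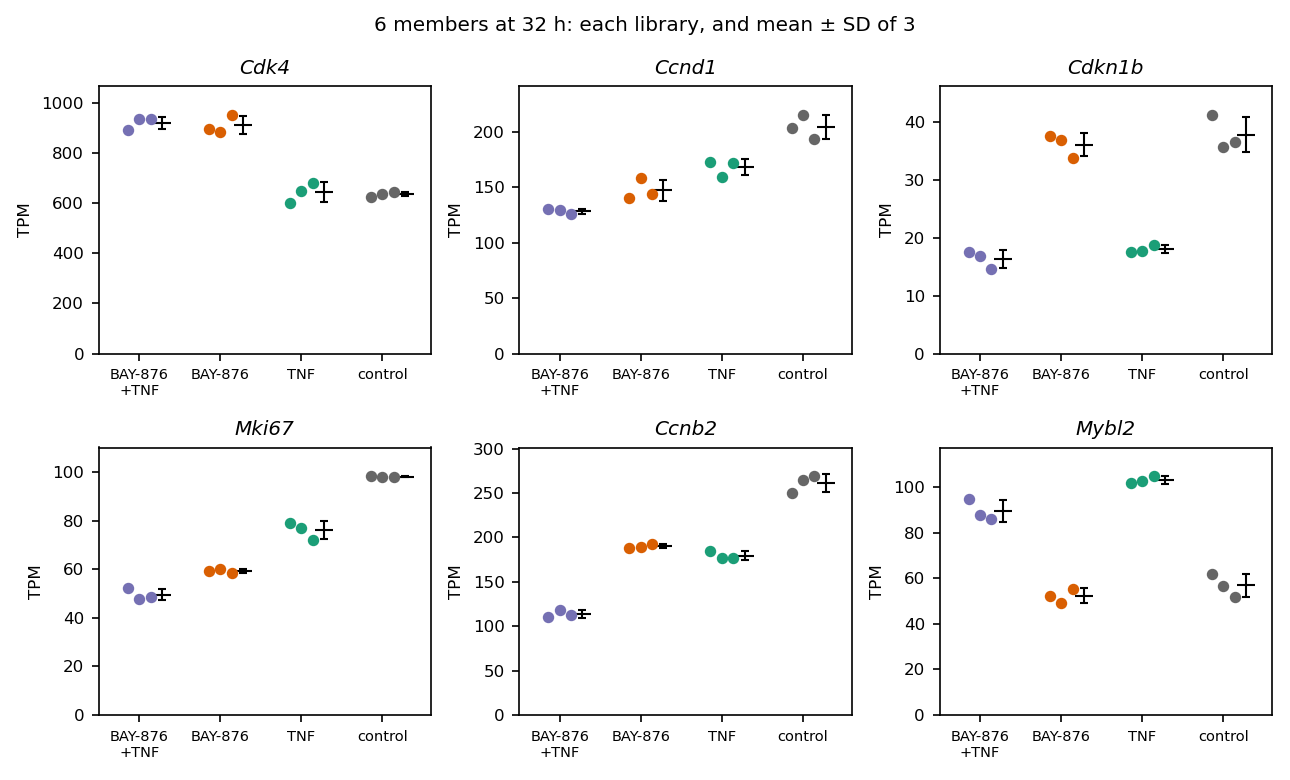
Points give the TPM of each library of the 4 groups at 32 h for 3 G1 and 3 mitosis members, with the mean ± SD of 3 libraries beside them, each axis from 0. Cdk4 separates by BAY-876, Cdkn1b and Mybl2 by TNF, and Ccnd1, Mki67 and Ccnb2 are lowest in the combination, at 125 to 130.01, 47.9 to 52.3 and 110.4 to 118 TPM.

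The proportions of the D cyclins differed between the groups. Ccnd1 made up 34.7 ± 1.52% of summed Ccnd1, Ccnd2 and Ccnd3 TPM with BAY-876 and TNF, 43.6 ± 1.88% with BAY-876, 44.5 ± 1.16% with TNF and 53.6 ± 0.618% in controls (SD, n = 3 each). No combination or control library overlapped another group in this share. Ccnd2 made up 40.5 ± 2.48%, 32.5 ± 0.134%, 28.9 ± 0.535% and 23.5 ± 0.506% in the same order. The sum of the 3 was 371 ± 22.8, 338 ± 7.34, 377 ± 10.2 and 381 ± 16.4 TPM in that order (SD, n = 3 each). Cdk4 exceeded Cdk6 by a ratio of 7.56 ± 0.655 with BAY-876 and TNF, 10.8 ± 1.18 with BAY-876, 6.38 ± 0.531 with TNF and 9.02 ± 0.346 in controls.

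BAY-876 lowered 11 of 14 replication genes against control, over several steps of the process, and 8 on TNF. Fewer passed in the authors' deposited tables, as given above. Mcm6, a subunit of the replicative helicase, had 234, 219.6 and 216 TPM with BAY-876 and TNF, 218, 218 and 213 with BAY-876, 262, 269.7 and 275 with TNF and 265, 274 and 271 in controls. The BAY-876 libraries lay below all others. BAY-876 was 1.25-fold lower (log2 −0.32, SE 0.036, limma adjusted p = 5.4e-05) against control and 1.21-fold lower (log2 −0.27, SE 0.036, limma adjusted p = 0.000192) on TNF. Pcna, the sliding clamp of DNA polymerase, had 304, 319 and 311 TPM with BAY-876 and TNF, 297, 303 and 291 with BAY-876, 374, 367 and 379.8 with TNF and 351, 374 and 354 in controls. The same separation held, 1.21-fold lower (log2 −0.28, SE 0.034, limma adjusted p = 9.59e-05) and 1.20-fold lower (log2 −0.26, SE 0.034, limma adjusted p = 0.000157) on TNF. Rrm1 had 72.5, 71.8 and 73.5 TPM with BAY-876 and TNF, 73.6, 70.1 and 73.7 with BAY-876, 91.5, 103 and 93.8 with TNF and 97.7, 93.2 and 96.4 in controls. It too split by BAY-876, 1.32-fold lower (log2 −0.40, SE 0.047, limma adjusted p = 8.11e-05) against control and 1.32-fold lower (log2 −0.40, SE 0.047, limma adjusted p = 9.71e-05) on TNF. Cdc6, which loads the helicase at origins, had 27.7, 29.3 and 29.5 TPM with BAY-876 and TNF, 23.2, 22.4 and 22.1 with BAY-876, 35.9, 29.8 and 30.6 with TNF and 32.1, 31.8 and 32.0 in controls. BAY-876 libraries without TNF were the lowest, 1.40-fold lower (log2 −0.48, SE 0.067, limma adjusted p = 0.000209) than control, and the combination was 1.27-fold higher (log2 0.34, SE 0.067, limma adjusted p = 0.00141) than BAY-876. On TNF, BAY-876 did not pass for Cdc6 (log2 −0.14, SE 0.067, limma adjusted p = 0.12).

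TNF split the enzymes of thymidine nucleotide supply. Tk1, the thymidine kinase of the salvage route, had 131, 128 and 134 TPM with BAY-876 and TNF, 172, 181 and 182 with BAY-876, 138, 137 and 144 with TNF and 199, 194 and 179 in controls. The 6 libraries with TNF lay below the 6 without it. TNF was 1.36-fold lower (log2 −0.45, SE 0.044, limma adjusted p = 8.46e-06) against control and 1.36-fold lower (log2 −0.44, SE 0.044, limma adjusted p = 8.99e-06) on BAY-876. Thymidylate synthase, of the synthesis route, ran the other way: Tyms had 87.6, 80.4 and 88.9 TPM with BAY-876 and TNF, 67.9, 65.2 and 65.1 with BAY-876, 94.4, 109 and 88.1 with TNF and 76.2, 80.1 and 80.2 in controls. Libraries with TNF lay above those without it. TNF was 1.22-fold higher (log2 0.29, SE 0.069, limma adjusted p = 0.00466) against control and 1.29-fold higher (log2 0.37, SE 0.069, limma adjusted p = 0.00108) on BAY-876. Mcm3, another helicase subunit, had 313, 306 and 286 TPM with BAY-876 and TNF, 259.9, 257 and 269 with BAY-876, 331, 352 and 342 with TNF and 286, 295 and 292 in controls. It was highest with TNF alone and lowest with BAY-876 alone, and TNF was 1.17-fold higher (log2 0.23, SE 0.038, limma adjusted p = 0.000492) against control and 1.15-fold higher (log2 0.20, SE 0.038, limma adjusted p = 0.00121) on BAY-876. Rrm2 had 169, 172 and 175 TPM with BAY-876 and TNF, 188, 196 and 186 with BAY-876, 197, 198 and 203 with TNF and 214, 214 and 211 in controls. The combination was lowest and control highest. The combination was 1.10-fold lower (log2 −0.14, SE 0.032, limma adjusted p = 0.00341) than BAY-876 and 1.16-fold lower (log2 −0.21, SE 0.032, limma adjusted p = 0.000473) than TNF, and TNF against control passed (log2 −0.10, SE 0.032, limma adjusted p = 0.027) but not without TNF library 1 or 2 or control library 1 or 2. The helicase subunit gene Mcm2 had 115, 104 and 99.4 TPM with BAY-876 and TNF, 91.9, 90.1 and 86.0 with BAY-876, 101, 102 and 104 with TNF and 99.2, 92.5 and 91.3 in controls. Its combination libraries lay above those with BAY-876 alone, 1.19-fold higher (log2 0.25, SE 0.056, limma adjusted p = 0.00358). Mcm5, of the same complex, had 139.8, 141 and 133 TPM with BAY-876 and TNF, 129.5, 122 and 124 with BAY-876, 146, 151 and 149 with TNF and 143, 145 and 139.5 in controls. The combination was 1.10-fold higher (log2 0.14, SE 0.038, limma adjusted p = 0.0116) than BAY-876. Of the remaining replication members, Mcm4 and Gins2 fell with TNF against control (log2 −0.16 and −0.36), each by limma.

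Most mitosis genes fell with BAY-876, and 9 of 18 fell with TNF. Mki67, whose protein Ki-67 coats mitotic chromosomes and marks cycling cells, had 52.3, 47.9 and 48.7 TPM with BAY-876 and TNF, 59.2, 60.2 and 58.6 with BAY-876, 79.1, 77.0 and 72.0 with TNF and 98.4, 98.1 and 98.0 in controls. The 4 groups were separate, in the order combination, BAY-876, TNF and control from low to high. BAY-876 was 1.64-fold lower (log2 −0.72, SE 0.047, limma adjusted p = 1.47e-06) and TNF 1.29-fold lower (log2 −0.37, SE 0.047, limma adjusted p = 6.09e-05) against control, and the combination was 1.52-fold lower (log2 −0.61, SE 0.047, limma adjusted p = 4.05e-06) than TNF. Ccnb2, a B-type cyclin that activates Cdk1, had 110.4, 118 and 113 TPM with BAY-876 and TNF, 188, 189 and 192 with BAY-876, 185, 176 and 176 with TNF and 250.02, 265 and 269 in controls. Combination libraries were far the lowest and control libraries the highest. BAY-876 was 1.37-fold lower (log2 −0.46, SE 0.040, limma adjusted p = 8.9e-06) and TNF 1.45-fold lower (log2 −0.54, SE 0.040, limma adjusted p = 7.05e-07) against control. The combination was 1.66-fold lower (log2 −0.73, SE 0.040, limma adjusted p = 6.53e-08) than BAY-876 and 1.57-fold lower (log2 −0.65, SE 0.040, limma adjusted p = 9.1e-07) than TNF. Its paralog Ccnb1 had 167, 170.2 and 160.5 TPM with BAY-876 and TNF, 169, 165 and 169 with BAY-876, 176, 174 and 176 with TNF and 172, 171 and 179 in controls, and in none of the 4 comparisons did Ccnb1 pass, with log2 fold changes from −0.08 to 0.01 and standard errors of 0.034.

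Plk1, a kinase of mitotic entry and spindle assembly, had 94.8, 96.2 and 95.4 TPM with BAY-876 and TNF, 98.6, 102 and 98.9 with BAY-876, 127, 129.5 and 129 with TNF and 129, 129.9 and 124 in controls. It split by BAY-876, 1.28-fold lower (log2 −0.35, SE 0.033, limma adjusted p = 1.5e-05) against control and 1.342-fold lower (log2 −0.42, SE 0.033, limma adjusted p = 4.23e-06) on TNF, while TNF against control gave log2 0.01 (SE 0.033). Kif11, the motor that pushes spindle poles apart, had 35.4, 33.1 and 33.3 TPM with BAY-876 and TNF, 45.4, 42.6 and 47.4 with BAY-876, 41.7, 42.3 and 42.2 with TNF and 53.5, 55.6 and 54.3 in controls. Combination libraries lay lowest and control libraries highest. The combination was 1.32-fold lower (log2 −0.40, SE 0.049, limma adjusted p = 4.65e-05) than BAY-876. Cyclin A2 (Ccna2) had 154, 153 and 149.8 TPM with BAY-876 and TNF, 185, 179 and 178 with BAY-876, 175, 171 and 176 with TNF and 214, 216 and 207 in controls. Its combination libraries were lowest too, and TNF was 1.22-fold lower (log2 −0.28, SE 0.032, limma adjusted p = 2.57e-05) against control and 1.18-fold lower (log2 −0.24, SE 0.032, limma adjusted p = 8.88e-05) on BAY-876.

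Mybl2 rose with TNF where most called mitosis genes fell, and Cdc20 passed as higher only with TNF on BAY-876. Mybl2, the transcription factor B-Myb, had 94.8, 87.9 and 85.9 TPM with BAY-876 and TNF, 52.4, 49.0 and 55.5 with BAY-876, 102, 103 and 105 with TNF and 62.1, 56.7 and 51.9 in controls. The 6 libraries with TNF lay above the 6 without it. TNF was 1.80-fold higher (log2 0.85, SE 0.067, limma adjusted p = 1.28e-06) against control and 1.70-fold higher (log2 0.77, SE 0.067, limma adjusted p = 3.1e-06) on BAY-876. FoxM1, its partner in late cell cycle transcription, fell instead: Foxm1 had 44.5, 47.4 and 46.1 TPM with BAY-876 and TNF, 58.7, 57.7 and 59.6 with BAY-876, 55.1, 52.9 and 54.0 with TNF and 65.2, 65.7 and 70.7 in controls. Its groups did not overlap, and TNF was 1.24-fold lower (log2 −0.31, SE 0.045, limma adjusted p = 0.000168) against control. Cdc20, an activator of the anaphase-promoting complex, had 282, 314 and 292 TPM with BAY-876 and TNF, 257, 258 and 260.5 with BAY-876, 285, 302 and 314 with TNF and 292, 305 and 291 in controls. TNF against control did not pass for Cdc20, with means of 300 and 296 TPM. BAY-876 alone was lowest, 1.14-fold lower (log2 −0.19, SE 0.046, limma adjusted p = 0.00636) than control, and the combination was 1.14-fold higher (log2 0.19, SE 0.046, limma adjusted p = 0.00485) than BAY-876. That last call was lost with quantile normalization (limma adjusted p = 0.306). Of the 18 mitosis members 14 had their lowest group mean in the combination and 4 (Aurka, Birc5, Cdc20 and Mybl2) with BAY-876 alone, while 10 of 14 replication members were lowest with BAY-876 alone and 3 in the combination. Of all genes tested 36.7% were lowest in the combination and 25.1% with BAY-876 alone.

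Whether the response to BAY-876 differed with TNF was tested as an interaction, the response on TNF minus that without it. No member passed in limma, against 1.56% of all genes tested (199 genes, 0.736% higher and 0.822% lower). Under an unadjusted limma p of 0.05 were 6 members (Cdc6, Ccnb2, Cdc20, Ccne1, Gins2 and Top2a). The share of all genes under that p was not counted, so the 6 are no result about the members. The smallest p-values were those of Cdc6, with an interaction of log2 0.34 (SE 0.094, limma adjusted p = 0.107), Ccnb2 with −0.19 (SE 0.056, limma adjusted p = 0.127) and Cdc20 with 0.17 (SE 0.065, limma adjusted p = 0.242). In these terms Cdc6 was lower with BAY-876 by less on TNF than without it, and Ccnb2 by more. Without TNF library 1, Cdc6 passed. The 44 estimates ranged from −0.36 to 0.37, and missing the threshold does not show that the responses were alike.

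Other genes of the pathway were counted at 32 h in the same way, and with BAY-876 against control the shares called were 41.2% in G1, 67.7% in replication and 75.0% in mitosis, with 8 of 16 p53 targets, against 37.4% of all genes. With BAY-876 against control 7 of 17 other G1 genes fell and 0 rose at the limma threshold, including the Cdk4 inhibitor Cdkn2d (log2 −0.49, SE 0.072) and the E2F factors E2f7 (log2 −0.57, SE 0.094) and E2f2 (log2 −0.44, SE 0.095). Of 31 other replication genes 18 fell and 3 rose, with the polymerase alpha subunit Pola1 (log2 −0.53, SE 0.046), the histone message binder Slbp (log2 −0.44, SE 0.051) and the primase Prim1 (log2 −0.37, SE 0.046) among those that fell. Of 36 other mitosis genes 27 fell and 0 rose at that threshold, including the kinesin Kif20a (log2 −0.44, SE 0.041), the spindle factor Tpx2 (log2 −0.38, SE 0.036) and the kinase Melk (log2 −0.51, SE 0.051). Of 16 other p53 targets 4 rose and 4 fell, with Bax (log2 0.42, SE 0.044) and Gadd45a (log2 0.53, SE 0.066) among the higher and Phlda3 (log2 −0.47, SE 0.057) among the lower. On TNF, BAY-876 gave 0 higher and 9 lower in other G1, 1 and 12 in other replication, 0 and 25 in other mitosis, and 4 and 5 among p53 targets, or 52.9, 41.9, 69.4 and 56.2%, against 34% of all genes. There Cdkn2d (log2 −0.87), the pocket protein gene Rbl1 (−0.53), E2f2 (−0.58), Pola1 (−0.38), Slbp (−0.41), Prim1 (−0.35), Tpx2 (−0.40), the cytokinesis scaffold Anln (−0.42), the kinesin Kif4 (−0.64), Phlda3 (−0.55) and Ptpn14 (−0.50) fell, and Gadd45a rose (0.89).

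With TNF against control the other lists gave 5 higher and 5 lower of 17 in G1, 10 and 3 of 31 in replication, 1 and 18 of 36 in mitosis, and 10 and 2 of 16 among p53 targets. The shares called were 58.8, 41.9, 52.8 and 75.0%, against 45.6% of all genes, so that those of replication and mitosis were near the share of all genes. Besides Cdkn1b, 2 inhibitor genes of the INK4 type fell: Cdkn2c averaged 25.6 ± 0.936 against 63.1 ± 3.32 TPM in TNF against control libraries (SD, n = 3), 2.41-fold lower (log2 −1.27, SE 0.054, limma adjusted p = 8.69e-09), and Cdkn2d fell as well (log2 −0.76, SE 0.072). The repressor-type E2f4 rose (log2 0.40, SE 0.049), as did the licensing factor Cdt1 (0.34, SE 0.050), the DNA repair gene Ung (0.33, SE 0.052) and Orc2 (0.48, SE 0.10). Anln (−0.63, SE 0.041), the kinesin Kifc1 (−0.50, SE 0.058) and the condensin subunit Ncapd2 (−0.42, SE 0.056) fell. Among p53 targets Tigar (0.75, SE 0.081) and Gadd45a (0.57, SE 0.066) rose, and Sesn1 fell (−0.72, SE 0.093). On BAY-876, TNF gave 5 and 7 in other G1, 11 and 2 in other replication, 1 and 21 in other mitosis, and 10 and 3 among p53 targets, or 70.6, 41.9, 61.1 and 81.2%, against 44.2% of all genes. In that comparison Cdkn2c (−1.35), Cdkn2d (−1.15), Anln (−0.71) and the kinetochore genes Nuf2 (−0.45) and Spc25 (−0.57) fell, while E2f4 (0.38), Ung (0.48), Orc2 (0.65), the single-strand binder Rpa2 (0.33), Gadd45a (0.93), the pro-apoptotic Bbc3 (0.93) and Tigar (0.63) rose, all as log2 fold changes past the limma threshold.

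The 36 h and 32 h experiments with BAY-876 share no library, and most mitosis members had opposite signs in them. The log2 fold change was below 0 at 32 h and above 0 at 36 h in 14 of 18 mitosis members, 2 of 14 replication members and 2 of 12 G1 members, against 27.9% of the 12086 genes tested in both. In the G1 members Ccnd2, Cdk6 and Ccne1 it was above 0 at 32 h and below 0 at 36 h, a pattern not counted over all genes. Of the mitosis members Bub1 alone passed at 36 h. There were 6 members that passed in both, and 4 of these passed in the same direction, out of 9 called at 36 h and 32 at 32 h. Over all genes the count that matches these 4 was 666, out of 1834 called at 36 h (36.3%) and 4711 at 32 h (14.1%). Ccnd1, Rrm1 and Rrm2 fell in both and Cdk4 rose in both, while Cdk6 and Bub1 passed in opposite directions. Cdk6 was 1.32-fold lower (log2 −0.40, SE 0.11, limma adjusted p = 0.0412) at 36 h and 1.20-fold higher (log2 0.26, SE 0.062, limma adjusted p = 0.00664) at 32 h. Bub1 was 1.22-fold higher (log2 0.29, SE 0.065, limma adjusted p = 0.0225) at 36 h and 1.33-fold lower (log2 −0.41, SE 0.077, limma adjusted p = 0.00172) at 32 h. Cdkn1a, with log2 1.17 (SE 0.074) at 36 h, had 0.13 (SE 0.15) at 32 h. The experiments also differ in the order of treatment, the total time since BAY-876 was added and the normalization of the tables. The fit at 32 h held more libraries than that at 36 h, which bears on the counts of calls. These cannot be told apart here, and the difference between the experiments was not tested.

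**Figure D3:**
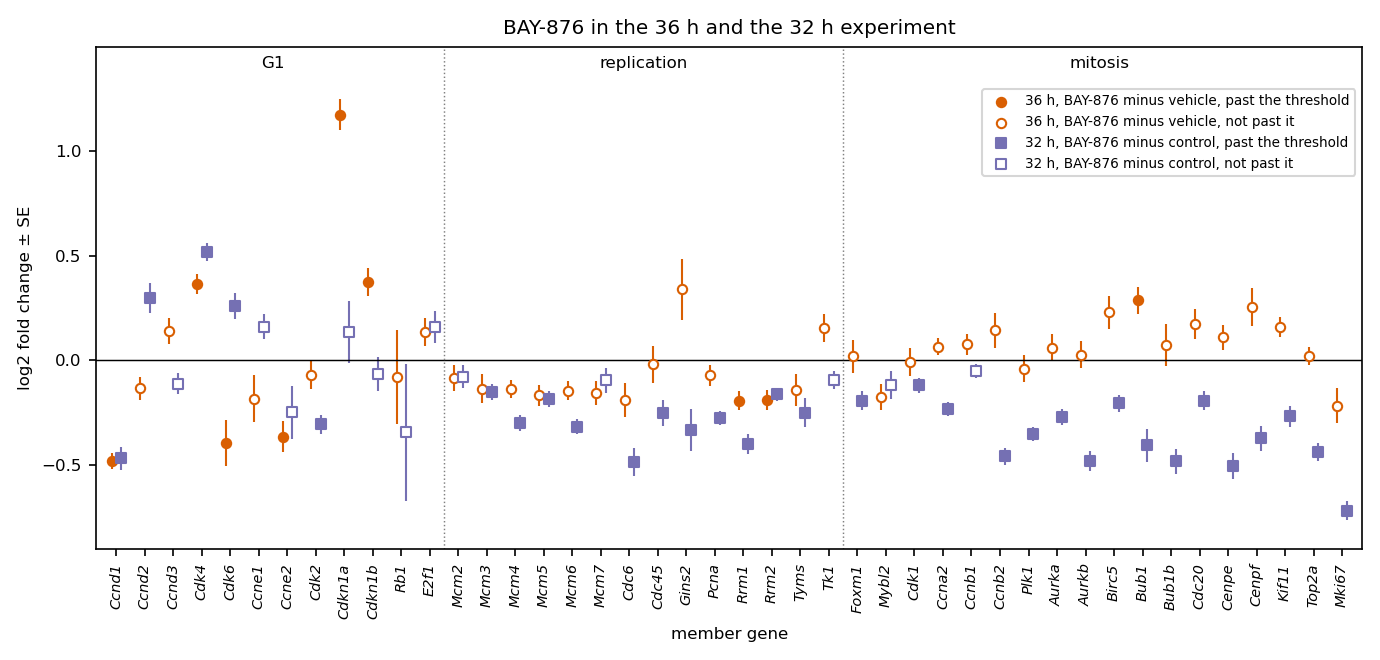
Points give the log2 fold change ± SE of BAY-876 over its own untreated group for the 44 members, at 36 h (orange circles) and at 32 h (purple squares), filled where the limma adjusted p is under 0.05. Cdk4, Ccnd1, Rrm1 and Rrm2 are filled on the same side of 0, and most mitosis members lie above 0 at 36 h and below it at 32 h.

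Class medians were also taken library by library. The median mitosis member stood at 68.8, 71.3 and 69.6% of its control mean with BAY-876 and TNF, at 80.7, 78.9 and 80.0% with BAY-876, at 92.2, 89.9 and 89.1% with TNF and at 99.8 to 100.4% in controls. The 4 groups did not overlap in this measure. The median replication member stood at 84.4 to 89.2% with BAY-876 and TNF, 83.4 to 87.2% with BAY-876, 100.2 to 102.8% with TNF and 99.5 to 101.5% in controls, so that TNF libraries overlapped controls and both BAY-876 groups overlapped each other. At 36 h the median replication member stood at 89.1 to 93.7% of the vehicle mean with BAY-876, against 99.7 to 100.3% with vehicle, and the median mitosis member at 103.6 to 107% against 96.8 to 101.4%.

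**Figure D4:**
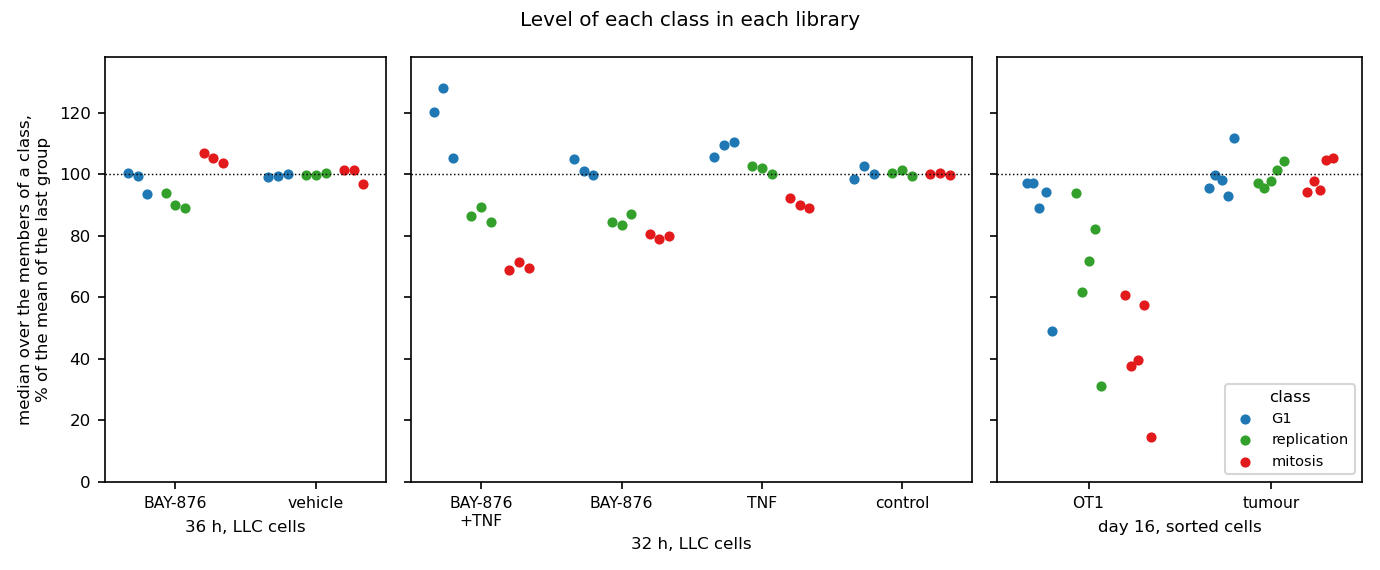
Points give, for each library, the median over the members of a class (blue G1, green replication, red mitosis) of the value as a percentage of the mean of the vehicle, control or tumour group. The red points of BAY-876 with TNF sit at 68.8 to 71.3%, and OT1 library 5 is lowest in each class, at 49.1, 31.1 and 14.65%.

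On day 16, OT1 libraries had less Ccnd1 and Cdk4 and more Cdkn1b and Rb1 than tumour libraries, and 15 of 18 mitosis members were lower. Of 44 members 5 were higher and 29 lower in OT1 cells, or 77.3%. That share is close to the 74.5% of the 13511 genes tested that passed (30.1% higher, 44.4% lower), so the total is no result about the members. The lower ones comprised 6 of 12 in G1, 8 of 14 in replication, of which Mcm6 and Tyms lost their calls with single libraries left out, and 15 of 18 in mitosis, and the 5 higher ones were G1 genes. The median log2 fold change was −0.31 for G1, −0.60 for replication and −1.42 for mitosis, against −0.21 for all genes tested. The libraries sorted as OT1 cells also held the myeloid and tumour markers given above, with a myeloid sum above the T cell sum in libraries 2 and 5, and the comparison has no untreated group.

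Ccnd1 had 37.2, 38.4, 20.4, 45.3 and 48.6 TPM in OT1 libraries 1 to 5, against 215, 246, 249.7, 216 and 291 in tumour libraries 1 to 5. The groups were far apart, with OT1 cells 6.48-fold lower (log2 −2.70, SE 0.20, limma adjusted p = 2.3e-07). Ccnd3 had 163, 167, 152, 146 and 158 TPM in OT1 libraries 1 to 5, against 96.0, 110.0, 108, 111 and 136 in tumour libraries 1 to 5, and every OT1 library lay above every tumour library, 1.40-fold higher (log2 0.49, SE 0.092, limma adjusted p = 0.000464). Ccnd2 had 87.3, 128, 108, 119 and 105 TPM in OT1 libraries 1 to 5, against 74.0, 90.9, 101, 54.7 and 96.0 in tumour libraries 1 to 5. OT1 library 1 lay within the tumour range and the other 4 above it, 1.33-fold higher (log2 0.41, SE 0.17, limma adjusted p = 0.0418), a call that was lost without OT1 library 2, 3 or 4 or tumour library 1 or 4 (limma adjusted p up to 0.338). Ccnd1 made up 12.4 ± 3.26% of the D cyclin sum in OT1 libraries, against 55.5 ± 0.801% in tumour libraries, and the share of Ccnd3 was 51.7 ± 3.77% in OT1 libraries, against 25.6 ± 2.14% in tumour libraries (SD, n = 5 each). The tumour share of Ccnd1 stands beside 53.6% in control LLC cells in culture, a share taken within each library.

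**Figure D5:**
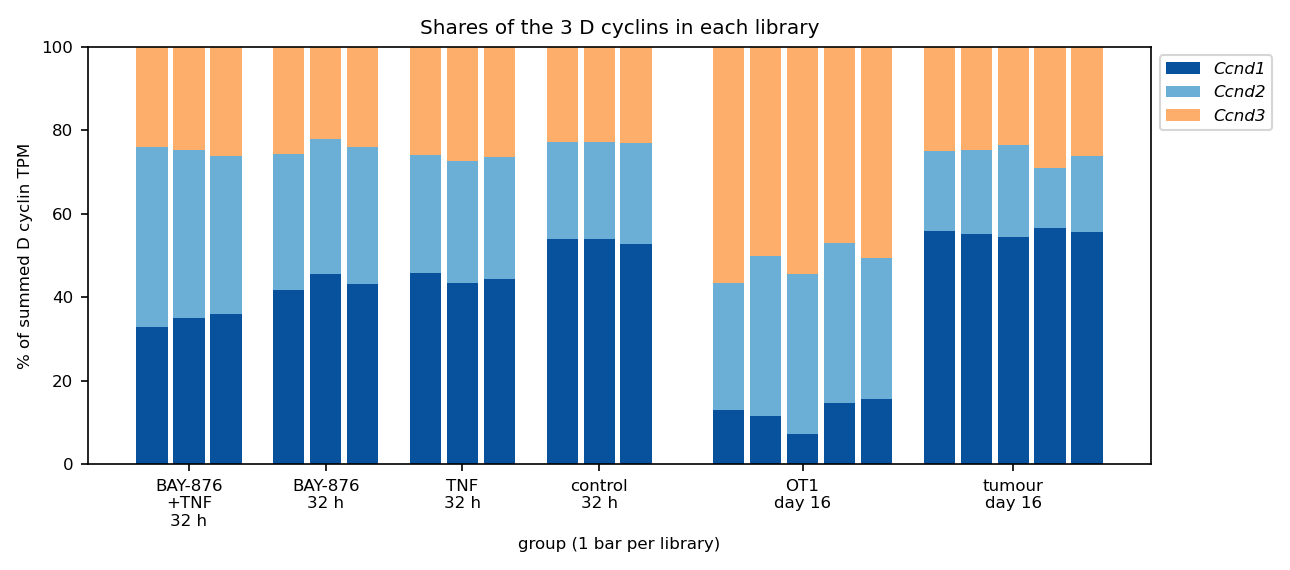
Bars split the summed TPM of Ccnd1, Ccnd2 and Ccnd3 of each library into percentages, for the 12 libraries at 32 h and the 10 of day 16. Ccnd1 takes 32.97 to 35.9% with BAY-876 and TNF and 52.9 to 54.0% in controls, and 7.28 to 15.6% in OT1 cells against 54.5 to 56.6% in tumour cells.

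Cdk4 had 252, 184, 217, 250.3 and 123 TPM in OT1 libraries 1 to 5, against 581, 557, 601, 593 and 627 in tumour libraries 1 to 5. OT1 library 5 was lowest, and no OT1 library reached a tumour library, with OT1 cells 2.96-fold lower (log2 −1.57, SE 0.17, limma adjusted p = 5.41e-06). Cdk6 had 70.2, 62.4, 68.3, 62.9 and 40.5 TPM in OT1 libraries 1 to 5, against 93.3, 102, 101, 77.7 and 149 in tumour libraries 1 to 5. Again OT1 library 5 was lowest and the groups did not overlap, 1.70-fold lower (log2 −0.76, SE 0.18, limma adjusted p = 0.00262). The inhibitor gene Cdkn1b had 62.3, 73.8, 65.6, 58.1 and 77.2 TPM in OT1 libraries 1 to 5, against 26.4, 29.7, 25.4, 32.4 and 23.6 in tumour libraries 1 to 5. Its OT1 libraries were all far above the tumour libraries, 2.40-fold higher (log2 1.27, SE 0.11, limma adjusted p = 8.04e-07).

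Cdkn1a had 30.999, 92.4, 49.7, 70.3 and 158 TPM in OT1 libraries 1 to 5, against 36.4, 35.7, 35.9, 19.1 and 21.5 in tumour libraries 1 to 5. OT1 library 1 lay within the tumour range, and the OT1 libraries ran in the same order, 1, 3, 4, 2 and 5 from low to high, in Cdkn1a and in their myeloid marker sum. OT1 cells were 2.37-fold higher (log2 1.25, SE 0.37, limma adjusted p = 0.01), and without the 3 OT1 libraries highest in myeloid markers (5, 2 and 4) the difference was log2 0.44 (SE 0.29, limma adjusted p = 0.199). These 3 libraries also had the highest Cdkn1a values, so leaving them out had to lower the difference. Rb1, whose protein holds E2F factors inactive, had 16.4, 16.8, 14.6, 16.6 and 34.8 TPM in OT1 libraries 1 to 5, against 4.03, 4.09, 4.57, 3.76 and 2.83 in tumour libraries 1 to 5. OT1 library 5 stood well above the other OT1 libraries, all of which were above the tumour libraries, 4.11-fold higher (log2 2.04, SE 0.22, limma adjusted p = 4.2e-06). The part of the myeloid signal in these differences was not tested.

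In replication, Mcm3 had 139, 93.7, 111, 127 and 56.5 TPM in OT1 libraries 1 to 5, against 239, 211, 243, 231 and 230.2 in tumour libraries 1 to 5. No OT1 library reached the tumour range, 2.28-fold lower (log2 −1.19, SE 0.20, limma adjusted p = 0.000205). Rrm2 had 104, 66.9, 70.8, 94.7 and 27.5 TPM in OT1 libraries 1 to 5, against 189, 196, 197, 179 and 235 in tumour libraries 1 to 5, also without overlap, 2.96-fold lower (log2 −1.57, SE 0.29, limma adjusted p = 0.000416). Gins2, a subunit of the active helicase complex, had 24.6, 17.7, 19.8, 29.8 and 11.1 TPM in OT1 libraries 1 to 5, against 33.9, 37.4, 47.8, 47.2 and 37.3 in tumour libraries 1 to 5. OT1 libraries lay lower throughout, 2.01-fold lower (log2 −1.004, SE 0.22, limma adjusted p = 0.00135). Mcm2, Mcm4, Mcm5, Mcm7, Pcna and Rrm1 did not pass, with log2 fold changes from −0.55 to −0.18 and overlapping groups. The call of Mcm6 was lost without tumour library 2, 4 or 5, and that of Tyms without OT1 library 2 or tumour library 1, 2, 4 or 5 (limma adjusted p up to 0.0605 for Mcm6, and up to 0.255 for Tyms over all alternatives).

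In mitosis, the kinase gene Aurka had 30.5, 19.1, 21.3, 30.0 and 9.38 TPM in OT1 libraries 1 to 5, against 66.5, 65.9, 67.7, 73.4 and 87.9 in tumour libraries 1 to 5. Every OT1 library lay below every tumour library, 3.40-fold lower (log2 −1.76, SE 0.26, limma adjusted p = 7.09e-05). Cdk1, the kinase of mitotic entry, had 166, 104, 98.4, 145 and 46.3 TPM in OT1 libraries 1 to 5, against 343, 305, 321, 331 and 341 in tumour libraries 1 to 5, and Ccnb1, its cyclin, had 56.0, 34.1, 34.4, 52.2 and 14.1 TPM in OT1 libraries 1 to 5, against 135, 122, 120.0, 121 and 114 in tumour libraries 1 to 5. In both genes library 5 was lowest among OT1 cells and the groups did not overlap, with Cdk1 3.17-fold lower (log2 −1.66, SE 0.27, limma adjusted p = 0.000161) and Ccnb1 3.46-fold lower (log2 −1.79, SE 0.29, limma adjusted p = 0.000163). Mybl2 had 33.6, 19.5, 30.6, 34.3 and 9.09 TPM in OT1 libraries 1 to 5, against 64.9, 98.1, 93.9, 79.4 and 125 in tumour libraries 1 to 5. The OT1 range lay under the tumour range, 3.79-fold lower (log2 −1.92, SE 0.32, limma adjusted p = 0.000196). Mki67 did not follow the class, with 87.0, 51.1, 52.5, 71.5 and 22.04 TPM in OT1 libraries 1 to 5, against 51.8, 52.0, 50.4, 62.8 and 59.0 in tumour libraries 1 to 5. OT1 libraries 1 and 4 exceeded all tumour libraries and library 5 lay below all of them (log2 −0.08, SE 0.29, limma adjusted p = 0.799). Kif11 (log2 −0.44) and Plk1 (log2 −0.74, limma adjusted p = 0.0502) were the other 2 that did not pass.

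Within the OT1 group the level varied widely between libraries. The median mitosis member stood at 60.6, 37.6, 39.7, 57.4 and 14.65% of the tumour mean in OT1 libraries 1 to 5, and the median replication member at 94.0, 61.75, 71.6, 82.05 and 31.1%. Tumour libraries spanned 94.2 to 105.4% and 95.6 to 104.4%. Library 5 was lowest in both classes and library 1 highest. Tumour markers stood at a median of 12.1, 6.6, 6.11, 11.2 and 4.63% of their tumour mean in OT1 libraries 1 to 5, and their part in the cell cycle values was not tested. Without OT1 libraries 5, 2 and 4, 15 mitosis and 7 replication members were lower, and 3 G1 members were higher and 6 lower, with Ccnd2 and Cdkn1a no longer among the higher. Of 12054 genes tested that way 2491 were higher and 5670 lower.

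Among the other cell cycle genes on day 16, 3 of 17 in G1 were higher and 12 lower in OT1 cells, 0 and 21 of 31 in replication, and 0 and 27 of 36 in mitosis by limma. The shares called were 88.2, 67.7 and 75.0%, and 77.8% among 18 p53 targets, against 74.5% of all genes, so that the mitosis and p53 shares were near it. The pocket protein gene Rbl2, which acts in quiescent cells, averaged 84.6 ± 9.55 against 18.6 ± 2.55 TPM in OT1 against tumour cells (SD, n = 5), 4.38-fold higher (log2 2.13, SE 0.11, limma adjusted p = 1.54e-08). E2f5 (−1.92), the ubiquitin ligase subunit Skp2, which targets p27 (−1.55), Orc2 (−1.91), Pola1 (−1.50), Cdt1 (−1.12), Anln (−2.83), the kinesin Kif23 (−1.40) and Melk (−1.73) were lower on the log2 scale. Of 18 p53 targets 7 were higher and 7 lower, and Trp53inp1, at 35.3 ± 4.35 against 0.407 ± 0.186 TPM, Plk2, at 24.8 ± 5.30 against 0.449 ± 0.236 TPM, and Btg2, at 152 ± 44.9 against 2.86 ± 1.38 TPM (SD, n = 5), had the smallest p-values, all higher in OT1 cells.

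Tumour cells of day 16 and control LLC cells of the 32 h culture were normalized in separate tables, so their levels are set side by side with no test. The ratio of tumour to control mean TPM ranged from 0.539 to 1.62 over the mitosis members with a median of 0.725, from 0.682 to 0.996 over the replication members with a median of 0.871, and from 0.727 to 2.55 over the G1 members with a median of 1.13. Mybl2, with a ratio of 1.62, was the single mitosis member above 1, and Cdkn1a had the ratio of 2.55.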

How the data were processed

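The members, the gene lists and the tests were chosen with earlier results of these data known. Tools in the submitters' notes on processing were Salmon 0.13.1 or 0.14.1, STAR 2.6.1d and DESeq2 1.34.0, with the build mm10 and without an order of steps. The 36 h table holds counts that the authors deposited after normalization, a signal that is not whole counts: at best 62.6 to 71.1% of low values per library were whole multiples of a common step (tolerance 0.02), so reads were not recovered. The 32 h and day 16 tables hold TPM as deposited by the authors. The authors' deposited tables of comparisons give log2 fold changes and p-values, used as an alternative at 32 h. Another 24 columns matched no sample and were not used. The treatment label of 2 combination libraries gives the inhibitor another number, and these libraries were grouped by title.

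Within each table, log2(value + 1) was fitted with limma 3.58.1 (R 4.3.3, with trend), which understates the change of low genes. Genes needed at least 10 normalized counts or 1 TPM in 3 libraries (5 on day 16). The 4 groups at 32 h shared 1 fit. Benjamini-Hochberg adjustment ran over all genes tested, with a threshold of 0.05. Fold changes are 2 to the power of that log2 difference. The scripts were tested on simulated data. Pearson correlations between replicates ran from 0.9918 to 0.9928 (36 h experiment), from 0.995 to 0.9959 (32 h) and from 0.9711 to 0.9939 (day 16). Alternatives were another pseudocount, other filters, quantile normalization, a replicate block, each library left out, the 6 compared libraries alone and the authors' deposited tables. Members written out with every library were, per comparison and class, the 3 called with the smallest adjusted p, the one with the largest fold change, those opposite to most called members of the class, the D cyclins, Cdk4, Cdk6, Cdkn1a and Cdkn1b. A few more (Ccnb1, Foxm1 and Mki67 on day 16 among them) were added after their values were seen.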

Additional observations from a re-analysis of the deposited data

Results flagged for a closer look

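In 2 of 88 groups of 5 libraries tested, 1 library stood apart from the other 4, and chance alone gives about 1 in 20. Both cases were OT1 library 5. Its Cdk6 level was 40.53 TPM, against 62.37 to 70.21 TPM in the other OT1 libraries, a gap of 0.736 of the group's range. Its Rb1 level was 34.83 TPM, against 14.58 to 16.79 TPM in the others, a gap of 0.891 of the range. The same library had the highest myeloid marker sum, and the part of that signal in these values was not tested.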

How the results depend on the processing

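No result reversed under any alternative that was run. For single members in single comparisons, 953 results kept their call and 52 lost it under alternatives other than leaving out 1 library, and 974 kept it and 68 lost it with 1 library left out. The number of members lower with BAY-876 at 36 h was 5, against 3 with a replicate block and 1 to 11 with 1 library left out. For BAY-876 against control at 32 h, 3 members were higher, against 5 with quantile normalization, and 29 were lower, against 19 in the authors' deposited table. The interaction gave 0 members higher in limma, and 0 to 1 with 1 library left out. On day 16, 5 members were higher in OT1 cells, against 3 without the 3 OT1 libraries highest in myeloid markers, an alternative chosen after seeing the data. The cause of these shifts was not tested. Same-numbered libraries of different groups correlated at −0.192 to 0.12 in their deviations from the group means. On day 16 the values for libraries 1 to 5 were 0.111, 0.058, 0.045, 0.047 and 0.1. The highest values with other numbers were 0.078, 0.043, 0.113, 0.044 and 0.036. Correlations this low do not settle whether the numbers pair the samples, and the main fits did not pair them. The tables give no sequencing depth, so counting error is unknown.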
